A study of Mus musculus with 6 samples.

Results

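The genes described here are 8 transcription factors that pattern the mesenchyme of the pancreas, spleen and stomach, namely *Nkx3-2*, *Barx1*, *Tlx1*, *Nkx2-5*, *Nkx2-3*, *Foxf1*, *Foxl1* and *Tcf21*. They were taken as a list of names, and they are 8 of the 37224 genes of the deposited table. The study asked how sphingosine-1-phosphate signalling acts on lineage choice in the embryonic pancreas, and the samples analysed here are its wild type (wt) reference stages. Whole embryonic pancreata of wild type C57/Bl6J mice were collected at 13.5 and 15.5 days post coitum (dpc), with 3 samples per stage, each a pool of pancreata from up to 3 embryos. No sample carried a mutation or received a treatment, and the methods describe the samples of a stage as independent. Poly(A) RNA was sequenced and the uniquely aligned reads were counted per gene.

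The stomach, spleen and dorsal pancreas share a layer of splanchnic mesenchyme, and these factors divide that layer into organ territories. *Nkx3-2* (also called *Bapx1*) and *Barx1* mark the mesenchyme around the pancreatic bud, spleen primordium and stomach, *Tlx1*, *Nkx2-5*, *Nkx2-3* and *Tcf21* are known for their part in the spleen, and the forkhead genes *Foxf1* and *Foxl1* are targets of hedgehog signalling in the gut mesenchyme. None of the 8 is a marker of the pancreatic epithelium.

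Transcripts of the group were lower at 15.5 than at 13.5 dpc. Of the 8 genes, 7 had enough counts for the test, 6 fell and 0 rose (edgeR's quasi-likelihood test, adjusted p at or below 0.05 by the Benjamini-Hochberg method over all genes), while 10.7% of the 15578 genes tested fell, 11.6% rose and 22.3% did either. *Nkx3-2* fell most, to 30.5% of its 13.5 dpc level, followed by *Tlx1* (42.9%), *Tcf21* and *Foxf1* (both 49.6%), *Nkx2-3* (59.3%) and *Barx1* (60.9%). *Nkx2-5* was low and variable and did not pass the test, and *Foxl1* was close to the limit of detection at both stages. The median log2 fold change of the 7 genes was -0.98, against -0.01 over all genes tested. All 7 had a log2 fold change below 0, as had 51.1% of all genes, and 3 of them, *Nkx3-2*, *Tlx1* and *Tcf21*, were below -1, as were 3.83% of all genes. For the same 6 genes all 15.5 dpc samples lay below all 13.5 dpc samples, as was the case for 23.6% of the genes tested.

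The libraries of 13.5 dpc held 12895732 to 16389237 counts and those of 15.5 dpc held 10546028 to 12491550. Normalised counts are counts scaled to a common library size with TMM factors, which ranged from 0.847 to 1.081. The pancreatic identity of the samples was checked with 9 epithelial markers, all of them detected, whose summed normalised counts lay between 47020 and 53094 in the earlier and between 88829 and 160427 in the later samples. *Cpa1*, a carboxypeptidase gene of acinar cells, made up much of this sum, at 22724 normalised counts on average at 13.5 dpc and 93358 at 15.5 dpc, and of the 9 markers 5 were called higher and 2, *Sox9* and *Nkx6-1*, lower. The summed level of 12 general mesenchyme markers was 127101 to 143735 at 13.5 dpc and 94115 to 140673 at 15.5 dpc, and the ranges overlap. Samples of a stage differed from each other along gene length. Spearman's rho of the log2 difference with exon length, across genes that are not independent, was -0.591, -0.492 and 0.527 for the pairs 1 and 2, 1 and 3, and 2 and 3 of 15.5 dpc, and -0.0289, -0.326 and -0.313 for those of 13.5 dpc, and this trend was removed in an alternative fit. In whole organs, fewer cells of a type and less RNA per cell cannot be told apart.

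Stretches around the start sites of 3 factors are shown with the motifs that were found in them. The sequences are RefSeq's on GRCm38.p6, from windows of 250 bases before to 50 after the annotated start, and such windows were at hand for *Nkx3-2*, *Barx1*, *Tlx1*, *Nkx2-5*, *Nkx2-3* and *Tcf21*. All motifs were searched on both strands, were chosen after the sequences had been seen, and a match describes letters only. The *Nkx3-2* window was the only one of the 6 with the E-box CAGCTG, the kind of site that basic helix-loop-helix factors such as the Tcf21 protein bind, which 16.3% of all 32851 windows hold. Capitals mark it at chr5:41764441-41764470, minus strand, before RefSeq's start but inside the first exon of the deposited gene model.
Nkx3-2: gcctCAGCTGtcactgcgggcgccagagga

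The windows of the 2 genes next to each other in the level of decrease, *Barx1* and *Nkx2-3*, differ in composition. The *Barx1* window is 84.7% G and C, against a median of 52.7% over all windows, and holds 8 GC boxes (GGGCGG or its reverse complement, some overlapping), a motif found in 35.7% of windows. They are in capitals in the part before the first exon, chr13:48662786-48662997, plus strand.
Barx1: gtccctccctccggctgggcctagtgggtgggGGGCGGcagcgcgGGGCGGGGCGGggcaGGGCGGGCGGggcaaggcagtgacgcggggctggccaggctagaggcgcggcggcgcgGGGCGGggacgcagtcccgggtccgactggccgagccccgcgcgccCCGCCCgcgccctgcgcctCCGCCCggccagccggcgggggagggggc
The *Nkx2-3* window is 60.0% G and C. Before its start it holds 1 GC box and the CCAAT box on both strands, overlapping in a palindrome, and CCAAT was present in 37.4% of windows. Both are in capitals at chr19:43612075-43612324, plus strand.
Nkx2-3: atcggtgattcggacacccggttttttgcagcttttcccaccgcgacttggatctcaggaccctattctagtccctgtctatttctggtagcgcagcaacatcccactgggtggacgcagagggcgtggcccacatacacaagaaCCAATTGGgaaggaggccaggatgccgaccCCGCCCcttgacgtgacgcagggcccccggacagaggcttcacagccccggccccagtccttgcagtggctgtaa
Across the 6 windows, 0 held the NK2 element TNAAGTG (11.5% of windows), the forkhead core GTAAACA (3.65%) or TATAAA (13.6%).

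*Nkx3-2* (ENSMUSG00000049691, mm10 chr5:41761483-41764496, minus strand, 2 exons) encodes a homeodomain repressor that separates the splenic from the pancreatic mesenchyme. Replicates 1, 2 and 3 of 13.5 dpc had normalised counts of 343, 289 and 328, against 72.0, 123 and 98.2 in the 15.5 dpc replicates. Every 15.5 dpc sample was far below every 13.5 dpc sample, with replicate 1 of 15.5 dpc the lowest. The mean fell from 320 ± 27.7 to 97.6 ± 25.4 (SD, n = 3), a log2 fold change of -1.70 with a standard error of 0.192 (adjusted p = 0.00162, edgeR), and 0.687% of the genes tested had a fold change as low or lower.

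*Barx1* (ENSMUSG00000021381, chr13:48662998-48666507, plus strand, 4 exons) is a homeobox gene of the stomach mesenchyme that restrains Wnt signalling there. The 13.5 dpc samples held 886, 857 and 876 normalised counts, in relative terms the tightest of the 8 genes, and the 15.5 dpc samples 680, 394 and 521. The later samples were spread widely, with replicate 1 nearest to the 13.5 dpc level. The mean fell from 873 ± 14.8 to 532 ± 143 (SD, n = 3) with a log2 fold change of -0.72 ± 0.184 (SE) and an adjusted p of 0.0313 by edgeR. This call was lost when any single 13.5 dpc sample or replicate 3 of 15.5 dpc was left out, with adjusted p between 0.0969 and 0.113.

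**Figure D1:**
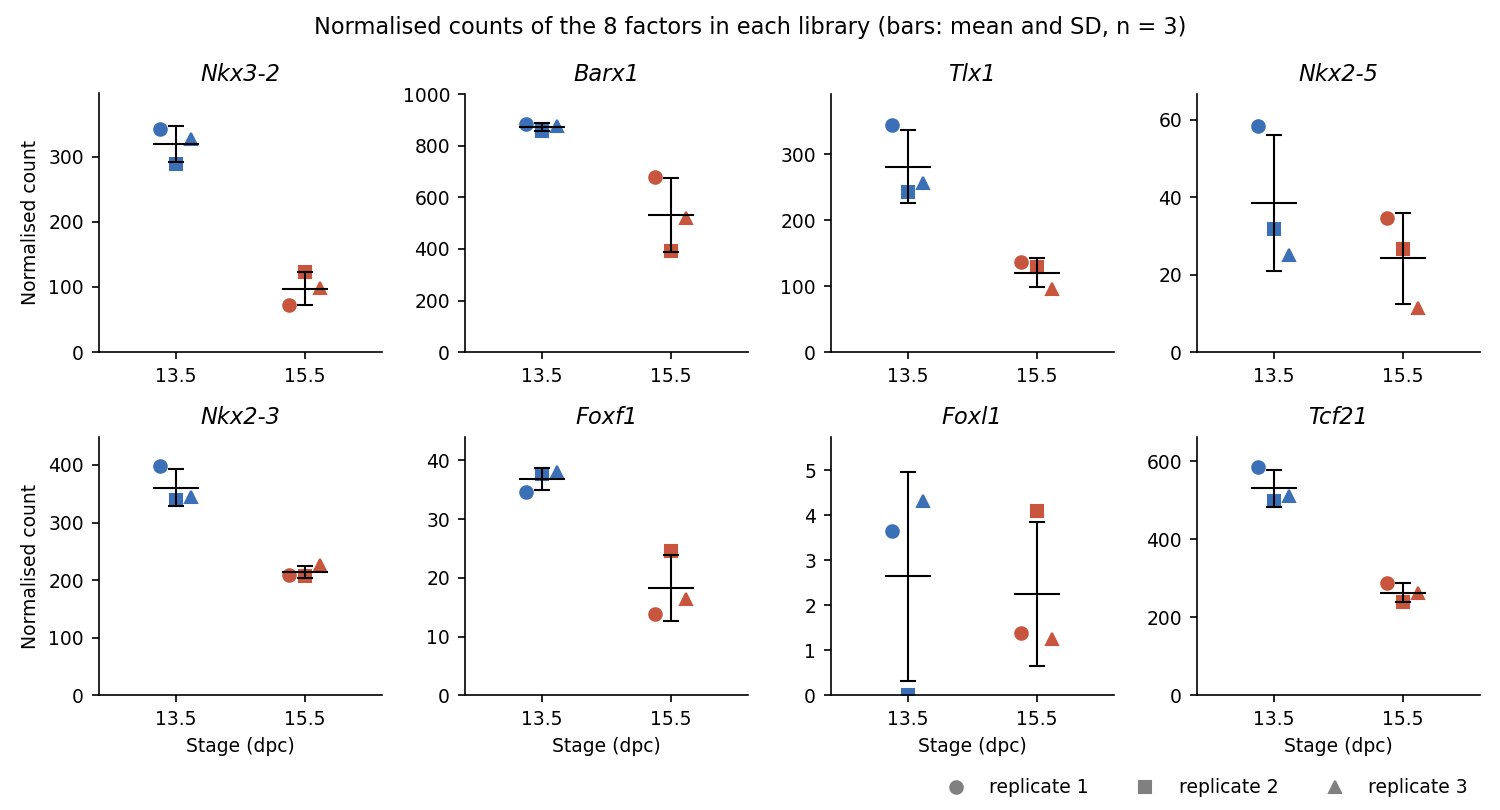
Normalised counts (linear axis from 0) of the 8 factors against stage in dpc, with 1 point per sample and replicate number shown by its shape, and black bars for the mean and SD of 3 samples. The stages are separate for *Nkx3-2*, *Barx1*, *Tlx1*, *Nkx2-3*, *Foxf1* and *Tcf21* and overlap for *Nkx2-5* and *Foxl1*.

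Of the factors known for the spleen, *Tlx1* (ENSMUSG00000025215, chr19:45149236-45156943, plus strand, 4 exons), without which mice form no spleen, gave 344, 243 and 256 normalised counts in the earlier samples and 137, 129 and 95.7 in the later ones. The stages were clearly apart, although replicate 1 exceeded the others at 13.5 dpc. The mean fell from 281 ± 55.2 to 121 ± 21.9 (SD, n = 3), with a log2 fold change of -1.22 ± 0.195 (SE) and an adjusted p of 0.00573 by edgeR.

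*Nkx2-5* (ENSMUSG00000015579, chr17:26838664-26841565, minus strand, 2 exons) is best known from the heart and is also expressed in the splenic primordium and the pyloric sphincter. At 13.5 dpc its samples gave normalised counts of 58.3, 31.7 and 25.1, while those of 15.5 dpc gave 34.6, 26.6 and 11.3. The stages overlapped and replicate 1 was the highest at both. From 38.4 ± 17.6 to 24.2 ± 11.8 (SD, n = 3), the log2 fold change was -0.65 ± 0.449 (SE; adjusted p = 0.311, edgeR). These values rest on 136 counts in all at 13.5 dpc and 60 at 15.5 dpc, and the ratio of the sums after scaling to library size was 0.647 with a 95% interval of 0.469 to 0.882, which covers counting error only and not the spread between samples. The log2 fold change was -0.23 without replicate 1 of 13.5 dpc, -0.32 without replicate 3 of 15.5 dpc and -0.94 without replicate 1 of 15.5 dpc.

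*Nkx2-3* (ENSMUSG00000044220, chr19:43612325-43615891, plus strand, 2 exons) acts in spleen and gut mesenchyme, where it is needed for the vascular addressin Madcam1. Its level was 398, 340 and 345 normalised counts in the earlier samples, compared with 209, 207 and 227 in the later samples. The later samples lay close together and well below all the earlier ones. The mean fell from 361 ± 32.5 to 214 ± 10.97 (SD, n = 3), with a log2 fold change of -0.75 ± 0.113 (SE) and an adjusted p of 0.0045 by edgeR. *Madcam1* itself had 249, 203 and 191 normalised counts in the earlier samples and 616, 282 and 373 in the later ones, with a log2 fold change of 0.98 ± 0.279 (SE; adjusted p = 0.0436, edgeR). This was 0.61 without replicate 1 of 15.5 dpc, and the call was lost when any single 13.5 dpc sample or replicate 3 of 15.5 dpc was left out (adjusted p between 0.0961 and 0.153, edgeR).

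*Tcf21* (ENSMUSG00000045680, chr10:22817279-22820128, minus strand, 2 exons) encodes a basic helix-loop-helix factor of spleen, mesothelial derivatives and visceral stroma. Normalised counts of 585, 497 and 510 in the 13.5 dpc samples compare with 288, 238 and 263 in those of 15.5 dpc. No later sample reached the level of any earlier one. The mean fell from 531 ± 47.4 to 263 ± 24.8 (SD, n = 3) with a log2 fold change of -1.01 ± 0.119 (SE) and an adjusted p of 0.00189 by edgeR.

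The forkhead genes were, with *Nkx2-5*, the least abundant per length. *Foxf1* (ENSMUSG00000042812, chr8:121084474-121086879, plus strand, 2 exons) reached 34.6, 37.7 and 38.1 normalised counts in the earlier samples but 13.8, 24.5 and 16.4 in the later ones. The earlier samples were almost equal and the later ones were all lower. The mean fell from 36.8 ± 1.90 to 18.3 ± 5.59 (SD, n = 3) with a log2 fold change of -0.98 ± 0.242 (SE; adjusted p = 0.0278, edgeR), and the call was lost when any single 13.5 dpc sample or replicate 3 of 15.5 dpc was left out, with adjusted p between 0.0868 and 0.109. In these fits the share of all genes that fell was 3.29% to 3.84%.

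*Foxl1* (ENSMUSG00000043867, chr8:121127940-121129029, plus strand, 3 exons), a marker of subepithelial cells of the gut, was seen with raw counts of 4, 0 and 6 in the 13.5 dpc samples and 1, 4 and 1 in the 15.5 dpc samples. It did not pass the filter on low counts and was not tested. The ratio of its scaled sums was 0.879 with a 95% counting interval of 0.263 to 2.67, so that no difference was detectable at this depth.

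The gene models behind these counts are not equally complete. Models of *Barx1*, *Tlx1*, *Nkx2-3* and *Nkx3-2* cover 99.7% to 100% of the exon bases of a GENCODE annotation of the same build. The counted *Tlx1* model is longer than the GENCODE one, with 3585 against 2139 bases. That of *Nkx2-5* covers 88.7%, and those of *Tcf21*, *Foxf1* and *Foxl1* cover 52.0%, 44.0% and 40.1%. What is missing is mostly non-coding, since 90.4%, 93.4% and 99.4% of the coding bases of these 3 genes are covered, so reads from much of their untranslated sequence were not counted. *Foxl1* was matched to its identifier by position and the other 7 by the identifier itself, and 0 exons of other genes of the table overlap those of the 8.

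Per kilobase of exon and per 1000000 counts, the order of levels at 13.5 dpc was *Barx1* (49.4 ± 0.837), *Tcf21* (34.3 ± 3.07), *Nkx3-2* (14.8 ± 1.28), *Nkx2-3* (13.5 ± 1.22), *Tlx1* (6.21 ± 1.22), *Foxf1* (2.74 ± 0.141), *Nkx2-5* (1.99 ± 0.911) and *Foxl1* (0.194 ± 0.169; SD, n = 3 throughout). The samples of *Nkx3-2* and *Nkx2-3* overlapped, as did those of *Foxf1* and *Nkx2-5*, while the other neighbours in this order were apart. At 15.5 dpc the levels in the same unit were 30.1 ± 8.10 for *Barx1*, 17.02 ± 1.604 for *Tcf21*, 8.02 ± 0.411 for *Nkx2-3* and 4.51 ± 1.17 for *Nkx3-2*. The low end consisted of *Tlx1* (2.66 ± 0.483), *Foxf1* (1.36 ± 0.417), *Nkx2-5* (1.25 ± 0.613) and *Foxl1* (0.164 ± 0.117). *Nkx3-2* and *Nkx2-3* had exchanged places and no longer overlapped, and of all neighbours at this stage *Foxf1* and *Nkx2-5* alone did. With the shorter GENCODE length, an alternative added after the data were seen, *Tlx1* was at 10.4 ± 2.04 and 4.46 ± 0.809, with samples overlapping those of *Nkx2-3* at 13.5 dpc and of *Nkx3-2* at 15.5 dpc, and the order of the means was as before.

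Since the summed counts of the epithelial markers were higher at the later stage, each factor was also set against other mesenchymal RNA of the same library. The log2 ratio to the geometric mean of the 12 mesenchyme markers does not depend on the scaling of libraries, and with 3 against 3 samples the exact permutation test (two-sided) cannot give a p below 0.1. For *Nkx3-2* the log2 ratio was -3.45, -3.76 and -3.65 at 13.5 dpc and -5.31, -5.09 and -5.16 at 15.5 dpc. The groups were widely apart, with a difference of -1.57 (exact p = 0.1).

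*Tlx1* differed by -1.05, *Foxf1* by -0.86, *Tcf21* by -0.84 and *Nkx2-3* by -0.58 on this log2 scale, each without overlap between the stages (exact permutation p = 0.1, n = 3 per stage). The share of all genes without overlap in this ratio was not computed. On normalised counts, 23.6% of the genes tested had all 15.5 dpc samples below all 13.5 dpc samples. For *Barx1* the stages overlapped, at -2.08, -2.19 and -2.23 at 13.5 dpc and -2.08, -3.41 and -2.76 at 15.5 dpc, so that replicate 1 of 15.5 dpc stood at the 13.5 dpc level (difference -0.58, exact permutation p = 0.4). The difference was -0.92 without that sample and -0.25 without replicate 2 of 15.5 dpc. With the trend of each library with gene length removed from *Barx1* and the markers alike, an alternative added after the data were seen, the *Barx1* difference was -0.95 and the stages did not overlap (exact permutation p = 0.1). *Nkx2-5* overlapped in both, with differences of -0.54 and -0.84. The first of these was -0.07 without replicate 3 and -1.001 without replicate 1 of 15.5 dpc, and -0.16 without replicate 1 and -0.82 without replicate 3 of 13.5 dpc.

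The denominator itself, as a log2 geometric mean, was 11.94 ± 0.07 at 13.5 dpc and 11.77 ± 0.27 at 15.5 dpc (SD, n = 3; difference -0.17, exact permutation p = 0.5). Of the 12 markers, *Pdgfra*, a receptor of mesenchymal cells, and *Prrx1*, a homeobox gene of mesenchyme, fell, with log2 fold changes of -1.33 and -0.54. The matrix genes *Dcn* and *Lum* rose, with 0.61 and 0.43. The other 8 did not pass the test. With single samples left out, *Pdgfra* passed in all 6 fits, while *Prrx1*, *Lum* and the epithelial markers *Sox9* and *Nkx6-1* passed in 2 and *Dcn* in 3 of them.

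**Figure D2:**
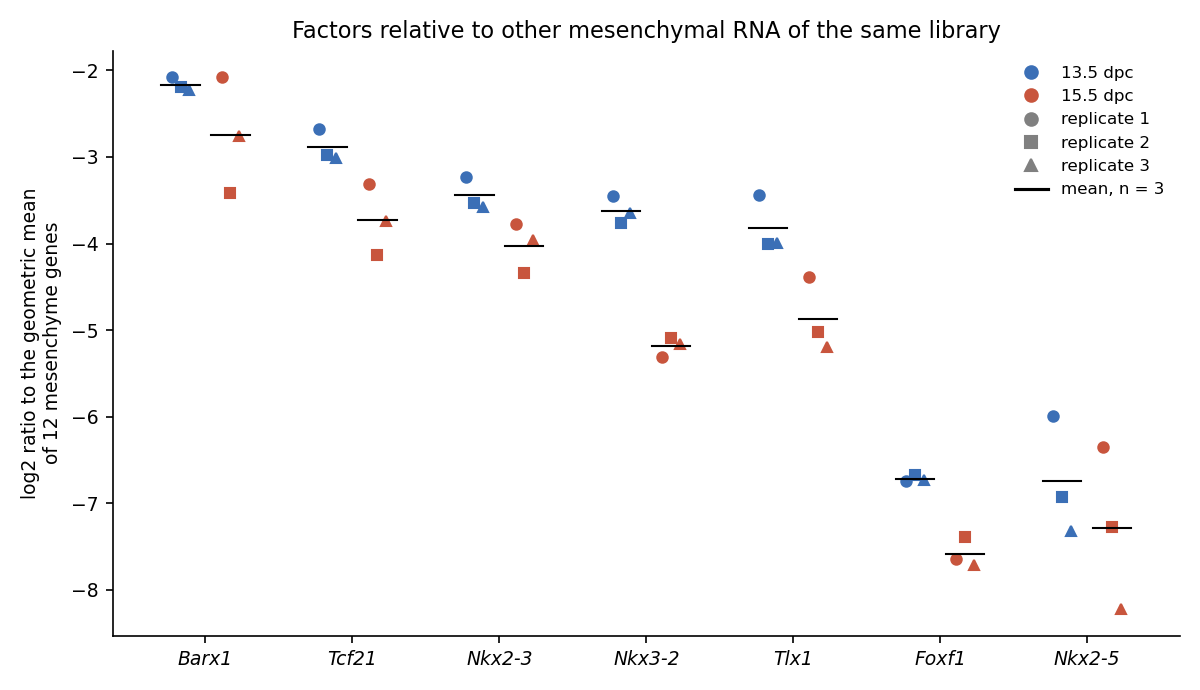
Log2 ratio of each of 7 factors to the geometric mean of 12 mesenchyme genes in the same library, with blue points for 13.5 dpc and red for 15.5 dpc, shapes for the replicate number and black lines for the mean of 3 samples. *Nkx3-2* shows the widest gap, -1.57 between the means, and 15.5 dpc replicate 1 of *Barx1* sits among the 13.5 dpc samples.

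The factors were then compared with each other within libraries, over the 15 pairs of the 6 genes that fell. The stages did not overlap in 6 pairs, and in 4 of these *Nkx3-2* was the gene that lost more. These 4 share that gene and are not separate observations, and the share over pairs of other genes was not computed. The log2 ratio of *Nkx3-2* to *Barx1* differed by -0.99 between stages, to *Nkx2-3* by -0.99, to *Tcf21* by -0.73 and to *Foxf1* by -0.69. Without replicate 1 of 15.5 dpc, which had the lowest *Nkx3-2*, the differences from *Barx1* and *Tcf21* were -0.59 and -0.46. The other 2 pairs were *Tlx1* over *Nkx2-3* (-0.47) and *Nkx2-3* over *Tcf21* (0.26). The first of these was -0.27 without replicate 3 of 15.5 dpc. *Nkx3-2* over *Tlx1* differed by -0.52 with overlapping stages (exact permutation p = 0.2), and by -0.22 without replicate 1 of 15.5 dpc. Each of the 6 had an exact permutation p of 0.1, the smallest possible with n = 3 per stage, and the smallest adjusted p over the 15 pairs was 0.25, so no pair passed a threshold of 0.05.

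How alike the patterns were over the 6 samples was measured as the root mean square difference of log2 CPM (counts scaled to a common total) after centring each gene, where a smaller value is more alike. The closest factors were *Nkx2-3* and *Tcf21* (0.155), then *Barx1* and *Tcf21* (0.206) and *Tlx1* and *Tcf21* (0.211). The farthest were *Nkx3-2* and *Nkx2-5* (0.826) and *Nkx3-2* and *Barx1* (0.661). *Tcf21* thus stood in each of the 3 closest pairs and *Nkx3-2* in both of the farthest.

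Among protein-coding genes with a mean of at least 100 normalised counts, the patterns most like *Nkx3-2* were those of *Tbx3*, a T-box repressor (0.055), *Scube1*, a secreted protein gene (0.0673), and the cartilage collagen gene *Col9a1* (0.076). These 3 genes had log2 fold changes of -1.76, -1.81 and -1.72. The genes nearest to *Tlx1* were *Col13a1* (0.0919), *Acss1* (0.1265) and *Tmem171* (0.168), and those nearest to *Tcf21* were the matricellular gene *Smoc2* (0.059), *Dpysl4* (0.0593) and *Ctxn1* (0.0656). All 6 fell, with log2 fold changes from -1.18 to -0.91.

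*Barx1* was most like *Mdk*, the growth factor midkine (0.0762), *Tmem86a* (0.112) and *Efna4* (0.116). *Nkx2-3* was most like the zinc finger gene *Zfp219* (0.0514), *Insyn1* (0.057) and *Pspc1*, a paraspeckle component (0.0619), and *Foxf1* like *Clip3* (0.0601), *Rbms3* (0.062) and the matrix protease gene *Adamts1* (0.0624). For *Nkx2-5* the closest was *Alb*, the serum albumin gene (0.1004), at 224 ± 83.3 normalised counts at 13.5 dpc and 147 ± 73.2 at 15.5 dpc (adjusted p = 0.308, edgeR). *Kazald1* (0.243) and *Flywch2* (0.350) followed at a distance. The sample numbers are few and all of these genes were picked for their likeness, so these values describe the 6 libraries.

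A further 43 genes are relatives of the 8 or act beside them in foregut and splenic mesenchyme. Of these, 35 were tested, 20 fell and 1 rose, against 10.7% and 11.6% of all genes tested, with a median log2 fold change of -0.62. *Prrx1* and *Wt1* of this list are also among the mesenchyme and mesothelial markers. *Tbx3* fell from 531 ± 54.3 to 156 ± 40.0 normalised counts (SD, n = 3; log2 fold change -1.76, adjusted p = 0.00151, edgeR). The secreted Wnt antagonist *Sfrp1*, a known target of Barx1, fell from 4236 ± 51.3 to 1515 ± 328 (-1.48, adjusted p = 0.00124, edgeR), whereas its relative *Sfrp2* had a log2 fold change of -0.01 (adjusted p = 0.964, edgeR).

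The other genes named by the size of their decrease were *Tlx2*, a paralogue of *Tlx1* (log2 fold change -1.42), the nuclear receptor genes *Nr2f1* (-1.19) and *Nr2f2* (-1.09), *Sox11* (-1.14), the growth factor *Fgf9* (-1.13) and *Hand2* (-1.05). *Sox11* lost its call in the same 4 fits as *Barx1*, with adjusted p between 0.076 and 0.107 by edgeR. *Msx2* was seen with raw counts of 23, 16 and 18 in the 13.5 dpc samples and 0 in each 15.5 dpc sample, at least 12.96-fold lower against a floor of 3 counts over the stage. The gene that rose was *Gata4*, a zinc finger gene of foregut mesenchyme and of the acinar lineage, from 1009 ± 113 to 2237 ± 67.3 (SD, n = 3; log2 fold change 1.15, adjusted p = 0.000907, edgeR). It was thus the exception among these genes.

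Known regulators of the group were read in the same way. *Wt1*, a mesothelial zinc finger gene required for the spleen, fell from 692 ± 63.7 to 411 ± 22.5 normalised counts (log2 fold change -0.75, adjusted p = 0.00389, edgeR). *Isl1*, expressed in dorsal pancreatic mesenchyme and in endocrine cells, had a log2 fold change of -0.18 (adjusted p = 0.172, edgeR).

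Relatives of the 8 were mostly scarce. *Foxf2*, *Nkx2-6* and *Tlx3* had at most 6 counts in any sample and were not tested, and *Barx2*, with 2, 7 and 3 counts in the earlier samples against 9, 9 and 5 in the later ones, was not tested either. *Foxc1* and *Foxc2* had log2 fold changes of -0.07 and 0.44 (adjusted p = 0.801 and 0.251, edgeR). On the hedgehog side, the ligand genes *Shh* and *Ihh* had sums of at most 6 counts per stage. The receptor gene *Ptch1* differed by -0.34 and the effector *Gli1* by 0.45 in log2 terms, and neither passed the test (adjusted p = 0.669 and 0.152, edgeR). The *Ptch1* value turned with the sample left out, from 0.11 without replicate 1 of 15.5 dpc, which had 49.8 normalised counts against 364 and 200.2 in replicates 2 and 3, to -1.04 without replicate 2.

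**Figure D3:**
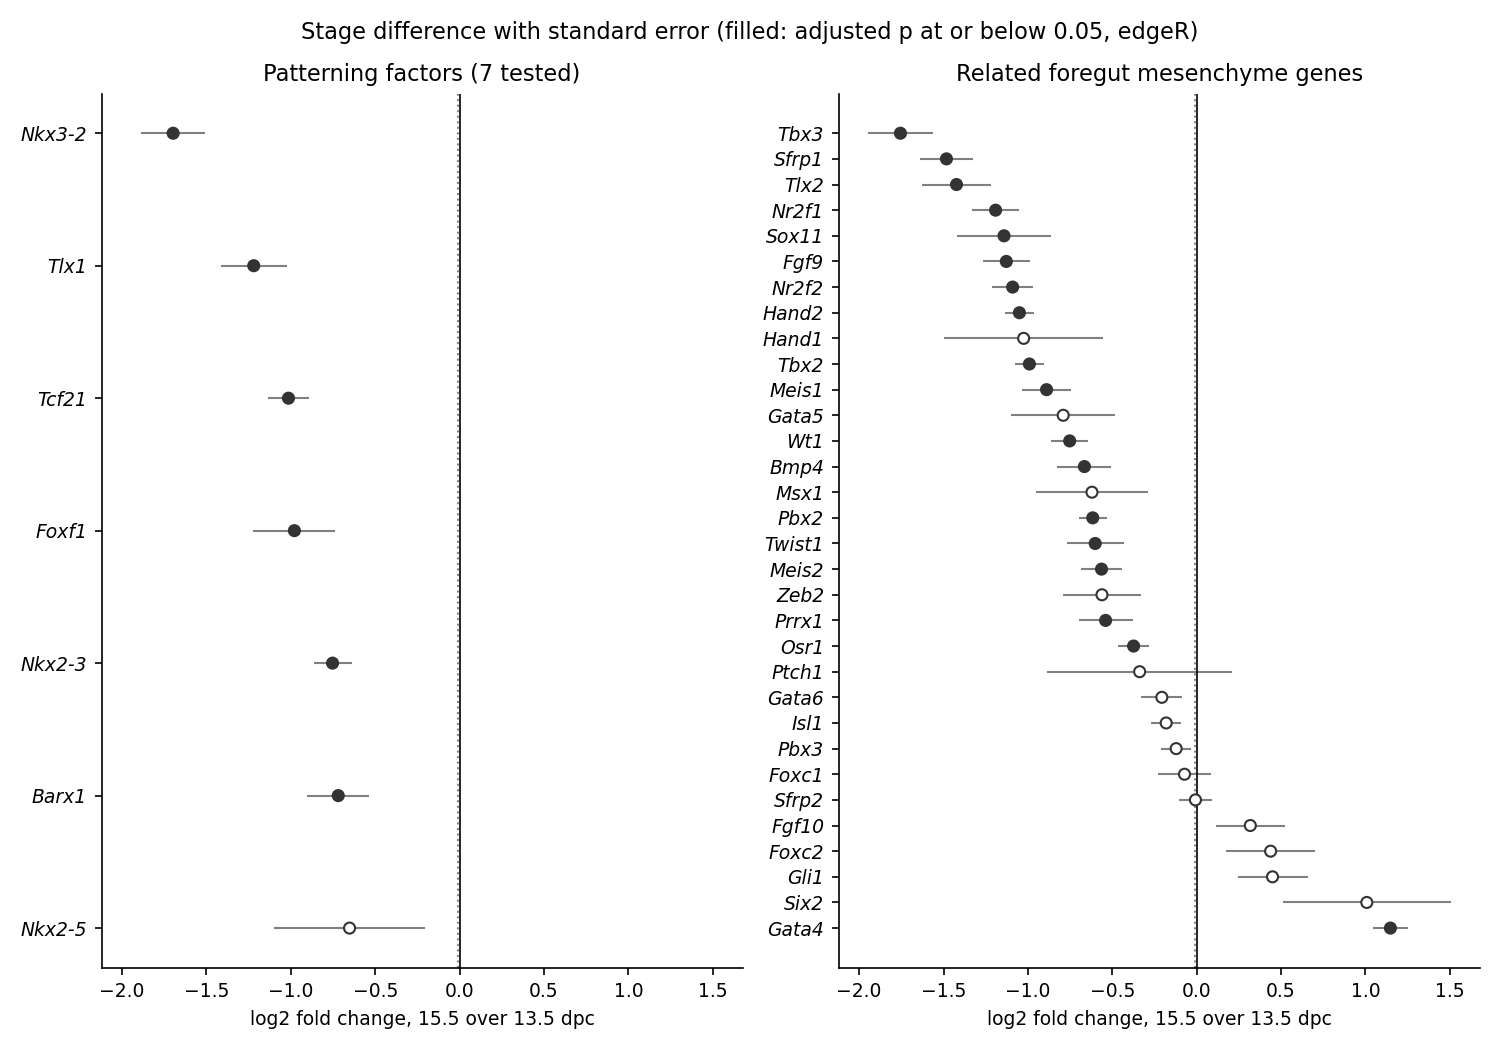
Log2 fold change of 15.5 over 13.5 dpc with its standard error for the 7 factors tested (left) and for the related mesenchyme genes reported (right, without *Msx2*, which had no counts at 15.5 dpc), with filled points for an adjusted p at or below 0.05 and a dotted line at the median of all genes, -0.01. *Nkx3-2* at -1.70 lies near *Tbx3* at -1.76, and *Gata4* at 1.15 is the filled point on the right of 0.

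Markers of neighbouring organs and other cell types moved with the stage too, and their part in the results was not tested. Summed normalised counts of 6 spleen stroma and lymphoid markers were 381 to 436 at 13.5 dpc and 664 to 1025 at 15.5 dpc, with *Cd79a* at no more than 10 counts in any sample. Those of 7 stomach epithelium markers were 88.3 to 114 and 206 to 407, with *Muc5ac* and *Tff1* at 0 in all samples. The stomach sum followed *Tff2* and *Atp4a*, while *Sox2*, *Gkn1* and *Gkn2* were lower in every 15.5 dpc sample than in any of 13.5 dpc, at no more than 15 counts.

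For 6 intestine markers the sums were 170 to 203 at 13.5 dpc and 344 to 426 at 15.5 dpc, with 4 of them at no more than 10 counts. This sum followed *Vil1*, which went from 146 ± 15.8 to 336 ± 34.3 normalised counts (SD, n = 3; log2 fold change 1.20, adjusted p = 0.00162, edgeR). *Lgals4* did not pass the test (adjusted p = 0.0727, edgeR). Smooth muscle genes (6) were at 2150 to 2250 and 2345 to 3223, with 3 called higher and 0 lower, against 11.6% and 10.7% of all genes. Mesothelial markers (6) were at 2283 to 2356 and 1773 to 2052, with 1 called lower, *Wt1*, and 1 higher. The 4 neural markers were lower at the later stage, at 564 to 570 against 357 to 401, whereas 5 endothelial markers overlapped, at 5129 to 5727 against 4678 to 6138.

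The direction of the 7 factors was the same in every setting in which they were tested, and *Nkx2-5* was not tested under the filter of at least 10 counts in every sample. Scaling by library size alone shifted the median of all genes to -0.22, and the *Nkx3-2* log2 fold change was -1.90 in that fit. Under the study's thresholds (a fold change under 0.6 or over 1.6, an adjusted p of at most 0.1 and a level over 100 normalised counts at 1 stage or both) 4 of the 8 were lower, namely *Nkx3-2*, *Tlx1*, *Nkx2-3* and *Tcf21*, and 3.58% of all genes tested met them in that direction. The study's further restriction to mRNA genes was not applied to this share.

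**Figure D4:**
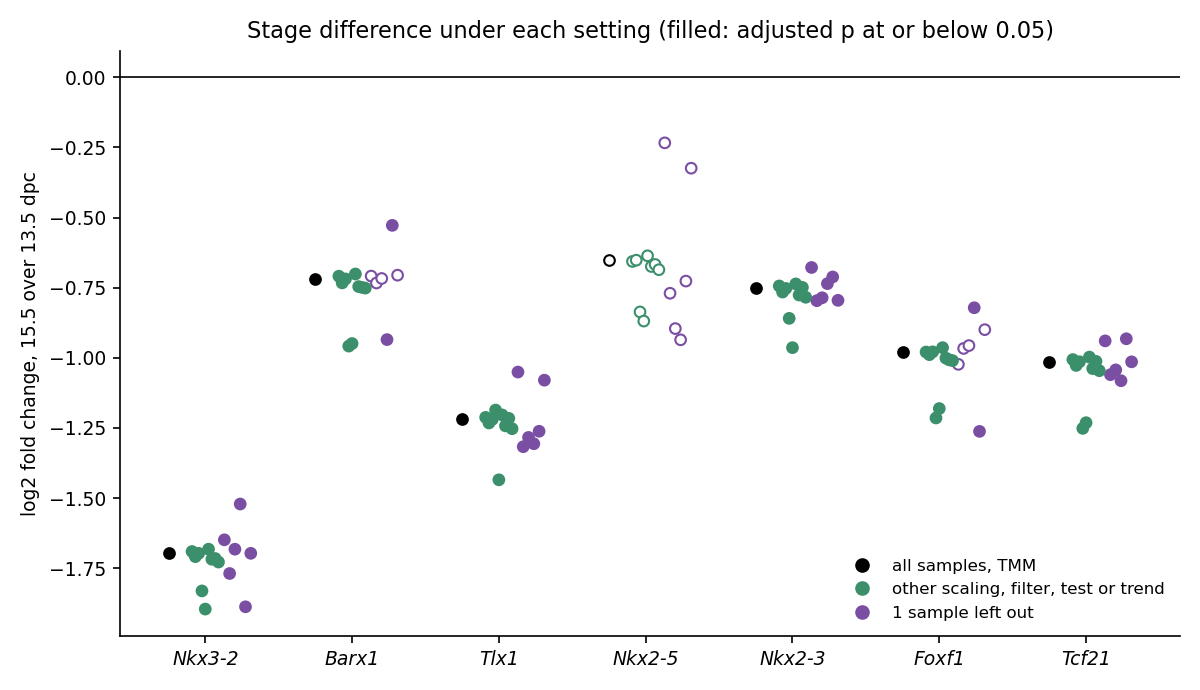
Log2 fold change of 15.5 over 13.5 dpc for the 7 factors tested, in black with all samples and TMM scaling, in green with another scaling, filter, test or trend removed and in purple with 1 sample left out, where filled points have an adjusted p at or below 0.05. All points lie below 0, *Barx1* and *Foxf1* each lose the call in 4 of the 6 fits with a sample left out, and *Nkx2-5* is open throughout.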

How the data were processed

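The authors aligned single-end reads of strand-specific poly(A) libraries to mm10 with GSNAP, counted unique alignments on Ensembl genes with featureCounts 1.4.6 and deposited the raw counts without normalisation. Whether counting used the strand is not given in the sources used here. All 6 sample columns were used. Of 37224 identifiers, 35449 were matched to GENCODE symbols.

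Counts were analysed here in R 4.3.3 with edgeR 4.0.16 (filterByExpr, TMM, quasi-likelihood test without covariates, Benjamini-Hochberg adjustment over 15578 genes). Standard errors were derived from the F statistic. DESeq2 1.42.0 was an alternative (the study used an earlier version), beside other scalings and filters, removal of a length trend (lowess, span 0.5), a replicate block and each sample left out. Leaving out samples was added later for ratios between factors and for marker genes. The ratio to mesenchyme used a pseudocount of 0.5. Likeness used log2 CPM with a prior count of 2. Totals of 10546028 to 16389237 counts limit precision, intervals and floors cover counting error only, and the floor was 3 counts. Steps were tested on simulated data.

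All 8 factors are named. Of the related genes, those named had the largest log2 fold changes among calls, up to 10 per direction, plus fixed relatives and regulators. *Sfrp2*, *Ptch1*, *Gli1*, *Shh*, *Ihh*, *Madcam1* and mesenchyme markers were named after their values were seen. The 3 genes most like each factor are also named. A few listed genes are not reported here. Members, lists and tests were chosen with earlier results of these data known.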

Additional observations from a re-analysis of the deposited data

How the results depend on the processing

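The count of 6 factors that fell was the same under median-ratio, upper-quartile and library-size scaling, DESeq2, other filters, removal of genes above 1% of counts and removal of the length trend. It was 4 to 6 with 1 sample left out, and 4 without 13.5 dpc replicate 1, 2 or 3 or without 15.5 dpc replicate 3, where *Barx1* and *Foxf1* missed the threshold. The cause was not tested. Over all genes, 1662 fell with all samples, between 519 and 606 in these fits and 3696 without 15.5 dpc replicate 2. Those that rose numbered 1805, between 716 and 858, and 3924 in the same order. The *Nkx3-2* log2 fold change ranged from -1.90 to -1.52 over all settings and that of *Barx1* from -0.96 to -0.53. Of the related genes, 20 fell with all samples, 14 to 21 with 1 sample left out and 11 under the study's thresholds, which also require more than 100 normalised counts. *Isl1* passed with library-size scaling alone (-0.39, adjusted p = 0.0486, edgeR). Without division by exon length, 4 of the 8 factors kept their place in the order of levels at 13.5 dpc. With a minimum mean of 20 for like genes, 14 of the 21 named pairs remained.

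Deviations from the stage mean correlated at 0.22, -0.218 and 0.0378 between the samples of replicate number 1, 2 and 3. Samples with different numbers were not compared across stages, so these values cannot decide whether the numbers pair the samples. With the number as a replicate block, 6 factors and 17 related genes fell, with 1250 genes lower and 1426 higher in all against 1662 and 1805. *Foxl1* is limited by depth, with 10 counts over the 13.5 dpc samples. *Nkx2-5* varied between samples of a stage, with coefficients of variation of 45.7% and 48.9%.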

Other observations

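Genes of the organs that these factors pattern were followed beside them. The smooth muscle genes *Acta2*, *Tagln* and *Actg2* rose, with log2 fold changes of 0.96, 1.13 and 0.85 (adjusted p = 0.0022, 0.00868 and 0.00996, edgeR), while *Des*, from 1369 ± 23.1 to 1095 ± 201 normalised counts (SD, n = 3), did not pass the test. Among spleen markers, *Cd3e*, part of the T cell receptor complex, rose from 31.9 ± 7.30 to 141 ± 26.4. The stromal chemokine genes *Cxcl13* and *Ccl21a* had log2 fold changes of 0.38 and 0.55 and did not pass (adjusted p = 0.0842 and 0.074, edgeR). Among stomach markers, *Tff2*, a trefoil factor of gastric mucous cells, had raw counts of 8, 3 and 10 at 13.5 dpc and 203, 79 and 77 at 15.5 dpc, and *Gkn2* had 10, 4 and 7 against 0, 0 and 0. With single samples left out, *Acta2* and *Cd3e* passed in all 6 fits, *Tagln* in all but that without 13.5 dpc replicate 1 and *Actg2* in 3 of them. *Des* passed without replicate 1 of 15.5 dpc, as did *Ccl21a*, and *Cxcl13* without replicate 2. These genes were named after their values were seen.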
